A study of Mus musculus with 26 samples.

Results

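The genome-wide occupancy of the coactivator CBP was compared between untreated and rosiglitazone-treated 3T3-L1 adipocytes, from 1 deposited ChIP-seq peak list per condition. The untreated list held 15383 peaks and the rosiglitazone list held 9515. Each peak was a 200 bp window with a score set by the authors. Windows of the CBP lists that overlapped by 1 bp or more were joined into 1 site, which gave 17003 CBP sites. All 15 peak lists of the series together formed 67815 sites.

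3T3-L1 is a mouse fibroblast line that becomes fat cells in culture. The cells of both groups had been differentiated with dexamethasone, insulin and 3-isobutyl-1-methylxanthine, and the label of the treated library names rosiglitazone, given at 1 µM in DMSO to mature adipocytes. The labels do not say whether untreated cells received DMSO, give no treatment time for the CBP libraries, and name no genotype change. The other lists mapped p300 and NCOR once per condition, MED1 with 2 lists per condition, and CEBPa, CEBPb, ATF2, JUND and FOSL2 once each in untreated cells. Peak lists hold no transcript levels, so markers of the labelled cell type were not checked. Names of single peaks in the second MED1 rosiglitazone list and in the NCOR rosiglitazone list carry different treatment times, and those in the CBP lists carry none.

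CBP is a histone acetyltransferase that does not bind DNA by itself and is recruited to enhancers and promoters by transcription factors. p300 is its close paralog. Rosiglitazone activates PPARγ, the nuclear receptor that directs fat cell differentiation and recruits coactivators when bound by an agonist. MED1 is the Mediator subunit that contacts ligand-bound nuclear receptors, and NCOR is a corepressor of nuclear receptors. C/EBP factors act beside PPARγ at adipocyte enhancers. JUND and FOSL2 belong to the AP-1 family. ATF2 belongs to the CREB/ATF family.

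The CBP list after rosiglitazone was shorter and lay mostly inside the untreated list, which held 83.0% of its sites. Both lists held 7891 of the 17003 sites (46.4%, 95% Wilson interval 45.7 to 47.2). The untreated list alone held 7491 sites, called untreated-only here, which was 44.1% (43.3 to 44.8). The rosiglitazone list alone held 1621 sites, called rosi-only, which was 9.53% (9.10 to 9.98). Every count of sites in 1 list only is to be read against those shares. Such intervals cover counting error only, and with 1 library per condition all of these values compare 2 libraries and carry no test between conditions.

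The scales of the 2 score columns cannot be set against each other. Scores ran from 1.00 to 17.01 with a median of 1.77 in the untreated list, and from 1.03 to 17.32 with a median of 1.78 in the rosiglitazone list. All scores in a list were whole multiples of 1 step, within 0.0055. The step was 0.0588 in the untreated list and 0.0469 in the rosiglitazone list. The lowest and the median peak stood 17 and 30 steps high in the first and 22 and 38 steps high in the second. What a step stands for is not labelled, read depth is unknown, and the part of depth or of the peak threshold in the length of the lists was not tested. When the untreated list was cut to its 9515 highest peaks, the sites divided into 6584 shared, 2930 untreated-only and 2928 rosi-only. Lists of equal length leave near-equal numbers in 1 list only by construction, so the excess of untreated-only sites cannot be told apart from the lengths of the deposited lists. Comparisons between conditions therefore rest on ranks within a list. Scores printed for single sites describe the peak within its own list, and their difference between lists is no measure of change.

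Sites in 1 list only lay low in that list. Their median score was 1.41 for untreated-only and 1.31 for rosi-only sites, against 2.41 and 1.92 at shared sites in the untreated and rosiglitazone lists. Each list was divided by score percentile into 10 bins, with tied scores kept in 1 bin, so that bins hold 1250 to 1855 sites in the untreated list and 835 to 1076 in the rosiglitazone list. In the lowest bin of the untreated list, 14.0% of sites were also in the rosiglitazone list. The share was 45.1% in bin 5 and 93.6% in the highest. For the rosiglitazone list the corresponding shares were 57.1%, 83.1% and 98.7%. Of the 100 highest sites, 98 of the untreated list and 98 of the rosiglitazone list were shared. Of the 1000 highest, 953 and 985 were.

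**Figure D1:**
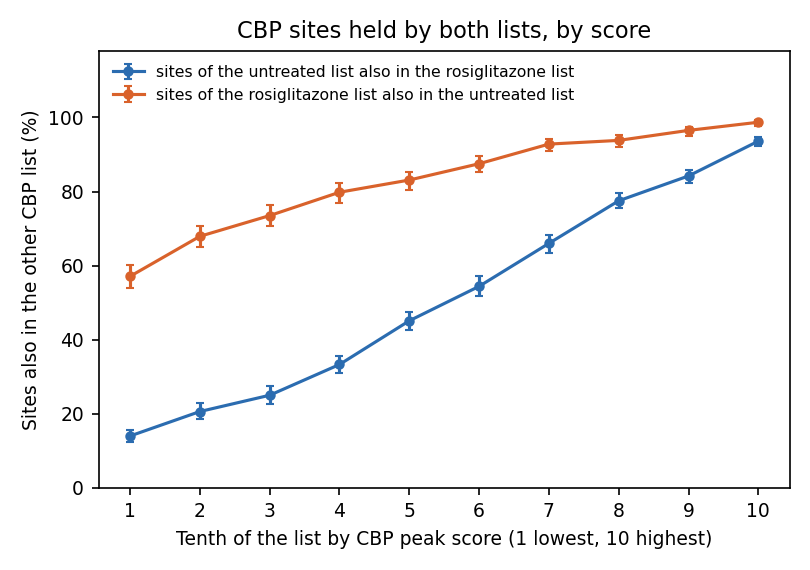
Share of CBP sites of 1 list that the other CBP list also held (y axis, %) in 10 bins of the list by score percentile, ties kept together (x axis, 1 lowest, 10 highest), with 95% Wilson intervals. The untreated list climbs from 14.0% to 93.6% and the rosiglitazone list from 57.1% to 98.7%, without a drop in either.

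The p300 lists were of closer length and gave a more even picture. The highest bins kept 96.0% and 96.1% of their p300 sites in the other condition, and the lowest bins kept 31.5% and 34.8%. In the lowest bin, CBP was thus below p300 in the untreated list and above it in the rosiglitazone list. That is the side on which the CBP lists differ in length, and the difference from p300 was not tested.

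The order of shared CBP sites by score was largely kept, and 72 of the 100 highest shared sites were in common between the lists. Ranks were taken as percentiles among the 7891 shared sites, so that both rankings have 1 length and 100 is the highest score. Spearman's rho between the conditions was 0.80 across sites, which share their libraries and are not replicates. The rank differed by at most 10 points at 3921 sites (49.7%). The middle 50% of differences lay between -10.2 and 10.1 points, and 90% lay between -30.7 and 31.0.

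A smaller share of CBP sites moved far in rank than of MED1 sites, between replicates or between conditions. Of shared CBP sites, 17.1% moved by 25 points or more between conditions. The corresponding shares were 22.6% for p300 and 18.0% for NCOR, with rho of 0.74 and 0.79. Between the untreated MED1 replicates, where no treatment differed, 30.9% of shared MED1 sites moved that far and rho was 0.60. Between the rosiglitazone MED1 replicates these values were 29.4% and 0.64. Between untreated and treated MED1 lists of the same replicate number they were 27.8% and 0.66 for replicate 1. For replicate 2 they were 27.4% and 0.68. MED1 ranks thus differed more between replicates than between conditions, and the MED1 replicate spread cannot stand in for that of CBP. CBP has no replicate of its own, so the spread of its ranks within a condition is not known.

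**Figure D2:**
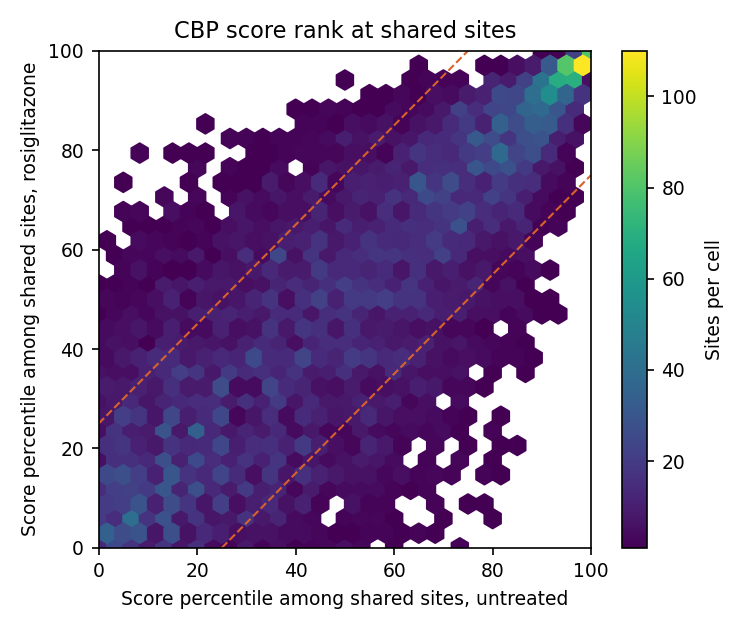
Score percentile of each of the 7891 shared CBP sites among shared sites in the untreated list (x axis) and in the rosiglitazone list (y axis); colour gives the number of sites per hexagon and dashed lines mark differences of 25 percentile points. Sites gather along the diagonal (Spearman's rho 0.80), most densely at the highest ranks.

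The 4 shared sites with the highest mean rank held quite different company. On chromosome 11 from 97979878 to 97980083 in build mm8 the CBP score was 17.01 untreated and 11.69 after rosiglitazone. Of the 13 other lists, only both p300 lists held it. On chromosome 17 from 39451847 to 39452048 the CBP scores were 15.36 and 11.55. Both p300 lists and both MED1 lists of replicate 1 held it, and no transcription factor did. Whether this stretch of chromosome 17 and that of chromosome 11 are repeats was not tested, since no genome of this build was used, and CBP binding there is uncertain.

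The other two were occupied by everything mapped. Chromosome 6 from 115204308 to 115204515 had CBP scores of 14.95 and 11.22 and was in all 13 other lists, with a MED1 score of 17.73 in untreated replicate 1 and 15.44 in rosiglitazone replicate 1, and 4.17 and 5.01 in replicate 2. Chromosome 5 from 101101033 to 101101261 had CBP scores of 14.48 and 10.89 and was also in all 13. Its MED1 score was 6.09 and 11.09 in replicate 1 and 6.16 and 12.87 in replicate 2, untreated and treated. The lists carry no gene names and an annotation of their build was not used here, so genes, exons and promoters at these positions were not analysed.

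Rank shifts of CBP went with shifts of p300 and MED1 and hardly with those of NCOR. Sites were called higher-ranked or lower-ranked where the percentile among shared sites was at least 25 points higher or lower after rosiglitazone. There were 672 higher-ranked sites (8.52% of shared sites) and 675 lower-ranked sites (8.55%). Near-equal numbers are built into a rank measure and say nothing of direction.

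At the 5386 shared CBP sites where both p300 lists also had a peak, rho between the CBP and p300 rank differences was 0.31. The median p300 difference was 12.9 points where CBP was higher-ranked and -11.6 where it was lower-ranked. For MED1 replicate 1 the medians were 15.4 and -12.7 points over 2476 sites (rho 0.31). For MED1 replicate 2 they were 12.0 and -5.7 over 1488 sites (rho 0.23). For NCOR they were 1.4 and -1.1 over 6082 sites (rho 0.06). No library of CBP enters the differences of the other proteins. Peak names give different treatment times for the second MED1 and the NCOR rosiglitazone lists, and none for CBP. A difference between proteins thus cannot be told apart from one of treatment time here.

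Presence of MED1 after rosiglitazone followed the same order. The first MED1 rosiglitazone list held 64.9% (61.2 to 68.4) of higher-ranked CBP sites, 46.7% of sites within 25 points, called steady here, and 32.7% (29.3 to 36.4) of lower-ranked sites. The second held 42.1%, 32.9% and 15.1%. In the untreated MED1 lists the spread was smaller, at 44.3%, 41.4% and 35.9% in the first and 30.4%, 29.5% and 22.2% in the second.

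The paralog p300 behaved alike in the treated list and differently in the untreated one. The p300 rosiglitazone list held 85.7% (82.9 to 88.2) of higher-ranked, 73.9% of steady and 68.9% (65.3 to 72.3) of lower-ranked CBP sites. The untreated p300 list held 86.2%, 80.0% (79.0 to 80.9) and 83.7%, so the steady sites were lowest there. NCOR was at 82.7%, 82.4% and 81.6% of these classes untreated and at 86.2%, 84.8% and 83.0% after rosiglitazone.

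ATF2 and the AP-1 subunits, mapped in untreated cells, ran the other way. ATF2 was at 79.3% (76.1 to 82.2) of higher-ranked, 85.6% of steady and 90.2% (87.7 to 92.2) of lower-ranked sites. JUND was at 59.2%, 67.0% and 72.7%, and FOSL2 at 43.5%, 49.1% and 53.6%. CEBPa was at 38.8% of higher-ranked and 35.9% of lower-ranked sites, both below the 47.3% of steady sites, and CEBPb followed it at 43.5%, 41.6% and 52.2%. Steady sites were stronger, with a median mean percentile of 52.4 against 41.4 and 40.3.

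The order of MED1 and ATF2 was the same among sites of like strength. Between mean percentiles of 25 and 50, the first MED1 rosiglitazone list held 63.4% of 352 higher-ranked sites, 40.1% of 1480 steady sites and 31.3% of 371 lower-ranked sites. ATF2 was at 78.7% of the higher-ranked and 83.4% of the steady sites there, and at 334 of the 371 lower-ranked ones. Between 50 and 75, MED1 in that list was at 75.7% of 206 higher-ranked and 35.5% of 183 lower-ranked sites, and ATF2 at 85.9% and 93.4%. For the C/EBP factors the classes differed more in the upper range. CEBPa was at 36.6% of higher-ranked, 37.8% of steady and 35.3% of lower-ranked sites between 25 and 50. Between 50 and 75 it was at 48.5%, 52.8% and 37.7%. CEBPb was at 40.1%, 44.5% and 42.0% in the lower range and at 53.4%, 57.4% and 44.3% in the upper.

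**Figure D3:**
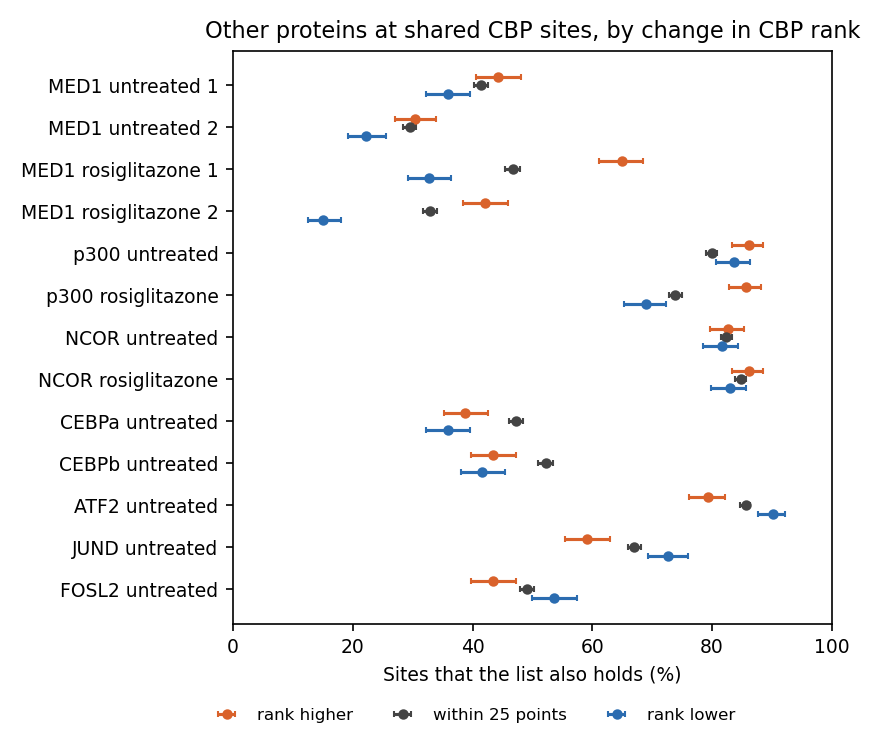
Share of shared CBP sites that each of the 13 other peak lists also held (x axis, %, with 95% Wilson intervals; lists on the y axis), for CBP sites ranked at least 25 percentile points higher after rosiglitazone (672), within 25 points, and at least 25 points lower (675). Higher-ranked sites lie to the right in the MED1 rosiglitazone lists (64.9% against 32.7% in the first) and to the left for ATF2 (79.3% against 90.2%).

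The 5 sites whose rank was most raised all held MED1 in both rosiglitazone lists and in at least 1 untreated list. On chromosome 2 from 172753584 to 172753788 the CBP score was 1.29 untreated and 3.05 treated, which is the 7.7th and the 80.9th percentile of shared sites. MED1 scores there were 6.82 and 15.73 after rosiglitazone and 5.78 in the second untreated list, and the p300 score was 2.43 untreated and 4.86 treated. CEBPa, CEBPb and ATF2 were also listed there.

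Next came chromosome 3 from 130050528 to 130050850, with CBP scores of 1.29 and 2.96 and with ATF2 as its only transcription factor. Chromosome X from 155147143 to 155147366 had CBP scores of 1.24 and 2.68, and chromosome 9 from 61093118 to 61093348, which held all 5 factors, had 1.47 and 2.96. Chromosome 11 from 68005188 to 68005459 had CBP scores of 1.65 and 3.38, with p300 at 2.92 and 6.62 and MED1 of replicate 1 at 1.50 and 6.57.

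The 5 sites whose rank was most lowered were nearly free of MED1. Chromosome 15 from 44547465 to 44547692 had CBP scores of 3.77 and 1.13, the 79.4th and the 5.6th percentile, with ATF2 and NCOR there and neither MED1 nor p300. Chromosome 8 from 117501954 to 117502196 had CBP scores of 3.35 and 1.03 and held CEBPa, CEBPb, ATF2 and FOSL2 without p300. Chromosome 1 from 166607278 to 166607550 had CBP scores of 3.30 and 1.03, with p300 listed at 2.26 in untreated cells and not after rosiglitazone.

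The other two retained p300. Chromosome 5 from 35988457 to 35988754 had CBP scores of 3.71 and 1.17, and it was the only 1 of the 5 with a MED1 peak, of score 2.47 in the first rosiglitazone list. Chromosome 6 from 108626125 to 108626330 had CBP scores of 3.53 and 1.17 and held no transcription factor.

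The other proteins were listed more often at shared CBP sites than at 1-list sites, which also had lower median scores. Shared sites were in a median of 8 of the 13 other lists, and untreated-only and rosi-only sites in a median of 4. ATF2 was at 85.5% of shared sites, 58.6% of untreated-only sites and 48.2% of rosi-only sites. CEBPb was at 50.6%, 26.8% and 27.0%. No other list held 34 of the shared sites (0.431%), 445 of the untreated-only sites (5.94%) and 61 of the rosi-only sites (3.76%). All 13 other lists held 325 shared sites, 4 untreated-only sites and 1 rosi-only site.

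Rosi-only CBP sites were more often in the treated p300 list than untreated-only sites were. The p300 rosiglitazone list held 56.0% of rosi-only and 32.7% of untreated-only CBP sites, a difference of 23.3 points (95% Newcombe interval 20.6 to 25.9). The untreated p300 list held 48.4% and 44.4%, a difference of 4.0 points (1.4 to 6.7). With the untreated CBP list cut to equal length, the first difference was 16.2 points and the second turned to -1.8.

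CBP sites in 1 list only were more often in the same p300 list only than all CBP sites were. Of all 17003 CBP sites, 8.70% were rosi-only and 16.1% untreated-only for p300. Of the 1621 rosi-only CBP sites, 317 (19.6%) were rosi-only for p300 and 195 (12.0%) were untreated-only for p300. Of the 7491 untreated-only CBP sites, 1547 (20.7%) were untreated-only for p300 and 670 (8.94%) were rosi-only for p300. The CBP site kept p300 in both conditions in 590 of the rosi-only cases (36.4%), and no p300 list held it in 519 (32.0%). At most CBP sites in 1 list only, p300 was thus not in the same list only.

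MED1 was the only factor with replicates. The first MED1 rosiglitazone list held 34.2% of rosi-only and 15.7% of untreated-only CBP sites, and the second held 19.9% and 9.52%. These differences of 18.6 and 10.4 points became 13.5 and 5.5 at equal length of the CBP lists. The untreated MED1 lists held 15.4% and 12.9% in the first and 12.2% and 8.84% in the second. On the log2 scale, the ratio of rosi-only to untreated-only CBP sites held was -1.08 and -1.14 in the rosiglitazone MED1 lists and -1.95 and -1.74 in the untreated ones. The groups did not overlap, with means of -1.11 ± 0.04 (SD, n = 2) and -1.85 ± 0.15 (SD, n = 2).

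The difference between these means was 0.74, and the two-sided exact permutation test gave p = 0.333. No arrangement of 2 lists per group gives a smaller p, so the design cannot reach 0.05. Whether the MED1 replicates were separate cultures is not labelled, and their spread may be technical. For p300 the same log2 ratio was -2.08 untreated and -1.43 treated, and for NCOR it was -2.15 and -2.01, with 1 list each.

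NCOR and the C/EBP factors depended on list length. NCOR after rosiglitazone was at 65.7% of rosi-only and 57.2% of untreated-only sites, and untreated NCOR at 57.4% and 55.2%. The NCOR differences of 8.5 and 2.1 points became -4.7 and -10.4 at equal length of the CBP lists. CEBPa was at 23.9% of rosi-only and 23.5% of untreated-only sites, a difference of 0.5 points (-1.8 to 2.8), which became -10.8 at equal length.

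ATF2 and the AP-1 subunits were less frequent over all rosi-only sites with either length. The difference was -10.4 points for ATF2 (-13.0 to -7.7), -4.6 for FOSL2 (-6.9 to -2.1) and -3.5 for JUND (-6.1 to -0.9), and at equal length it was -12.8, -6.5 and -5.8. These 5 factors were mapped in untreated cells only, so their occupancy after rosiglitazone is not known.

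**Figure D4:**
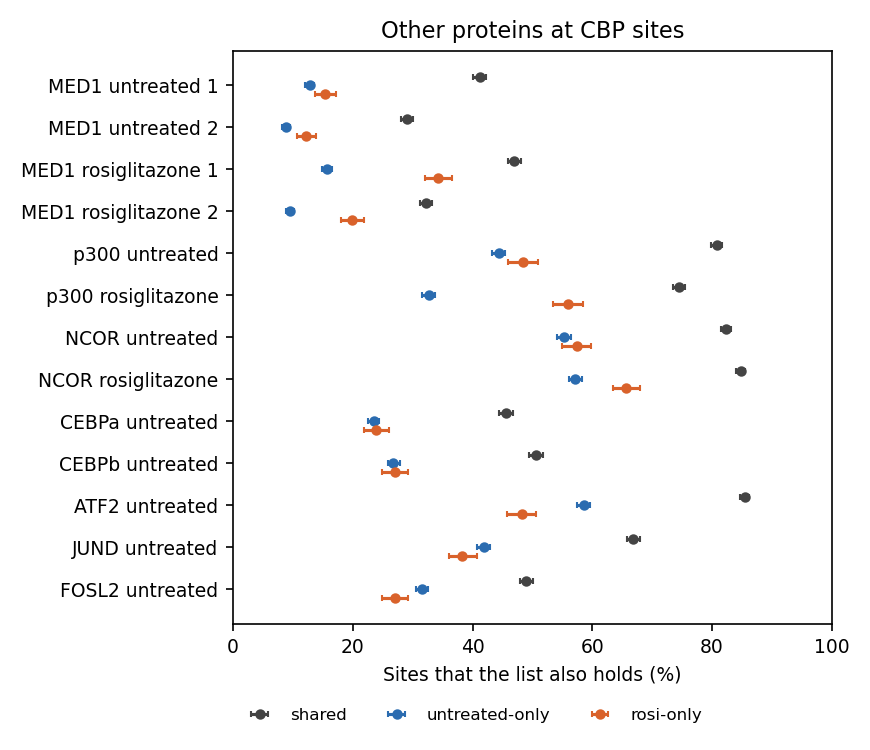
Share of CBP sites that each of the 13 other peak lists also held (x axis, %, with 95% Wilson intervals; lists on the y axis), for shared (7891), untreated-only (7491) and rosi-only (1621) CBP sites. Shared sites lie to the right throughout, and rosi-only sites exceed untreated-only sites most in the p300 and MED1 rosiglitazone lists (56.0% against 32.7% for p300).

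The ATF2 gap widened with CBP strength. In 4 bins of the list by score percentile, from the lowest to the highest, ATF2 was at 47.5%, 62.1%, 71.7% and 74.6% of untreated-only sites. At rosi-only sites it was at 46.0%, 49.4%, 52.7% and 50.7% (69 sites in the highest bin, 39.2 to 62.2). In the lowest bin the intervals overlapped, and in the other 3 they did not. The AP-1 subunits were not lower in the lowest bin, which holds 834 of the 1621 rosi-only sites. There JUND was at 37.5% (34.3 to 40.9) of rosi-only and 34.7% (33.0 to 36.3) of untreated-only sites, and FOSL2 at 28.1% (25.1 to 31.2) and 26.7% (25.2 to 28.3).

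p300 and MED1 after rosiglitazone were more frequent at rosi-only sites in every one of these bins. The p300 rosiglitazone list held 46.9%, 59.7%, 74.6% and 78.3% of rosi-only sites, from low to high score, and 26.0%, 33.6%, 41.5% and 46.8% of untreated-only sites. The first MED1 rosiglitazone list held 26.7% and 11.4% of them in the lowest bin and 47.8% and 23.9% in the highest. Untreated p300, both untreated MED1 lists and NCOR after rosiglitazone were also more frequent at rosi-only sites in every bin. Untreated p300 was at 42.0% and 33.1% in the lowest bin, 58.5% and 58.4% in the third, and 68.1% and 62.0% in the highest. NCOR after rosiglitazone was at 55.5% and 45.2% in the lowest bin and 92.8% and 87.9% in the highest. These bins come from CBP lists of unequal length.

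Untreated CBP sites with more kinds of factor were more often retained in the rosiglitazone list. Of the untreated list, 21.7% (20.0 to 23.6) of the 2008 sites with no mapped factor were retained. The share was 27.5% with AP-1 alone, 34.0% with C/EBP alone and 35.1% with ATF2 alone. It was 57.0% with ATF2 and AP-1, 56.3% with ATF2 and C/EBP, and 41.6% (36.2 to 47.3) of 298 sites with AP-1 and C/EBP. With all 3 kinds it was 79.6% (78.2 to 80.9) of 3520 sites.

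Strong CBP sites hold more factors. Within each of the 4 bins of the score, the retained share also rose with the number of the 5 factors. Combinations of kinds of factor were not compared within these bins, and single factors were. In the second bin from the bottom, 25.8% of sites with no factor and 57.5% of sites with all 5 were retained, and in the highest bin 69.3% and 93.2%. In the second bin, sites that also held untreated p300 were retained in 47.5% of cases (45.4 to 49.5) and those without it in 23.7% (21.8 to 25.8). With and without untreated NCOR the shares were 43.3% and 27.8% in that bin. In the highest bin they were 90.5% and 66.4% for untreated p300, 87.3% and 84.1% for untreated NCOR, 87.6% and 78.9% for treated NCOR, and 87.8% and 85.8% for CEBPa.

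By median distance, sites in 1 list only lay farther from shared sites than shared sites lay from each other. Distances were taken between centres. The median distance to the nearest other shared CBP site was 17.2 kb (95% interval 16.3 to 18.2) for shared sites. To the nearest shared site it was 30.6 kb (29.0 to 32.6) for untreated-only and 24.2 kb (21.6 to 26.5) for rosi-only sites. The order of the last pair depended on list length, since the medians were 29.3 and 30.5 kb when the untreated list was cut to equal length.

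Distance also followed strength. Among untreated-only sites it was 25.7 kb in the upper part of that class by score and 37.3 kb in the lower part, and among rosi-only sites 18.3 and 29.1 kb. Within 10 kb of a shared site lay 29.9% (28.8 to 30.9) of untreated-only and 36.0% (33.7 to 38.4) of rosi-only sites.

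A small share of 1-list sites lay just outside the overlap that would have joined them to a shared site. Within 500 bp of a shared site lay 87 rosi-only sites (5.37%, 4.37 to 6.57) and 179 untreated-only sites (2.39%, 2.07 to 2.76). Of shared sites, 296 (3.75%, 3.35 to 4.19) lay that near to another shared site, a smaller share than of rosi-only sites. The same distance held for 6.65% of rosi-only and 2.61% of untreated-only p300 sites, and for 6.09% and 7.37% of NCOR sites. With windows joined up to 500 bp between centres, 7134 untreated-only and 1461 rosi-only CBP sites were left.

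**Figure D5:**
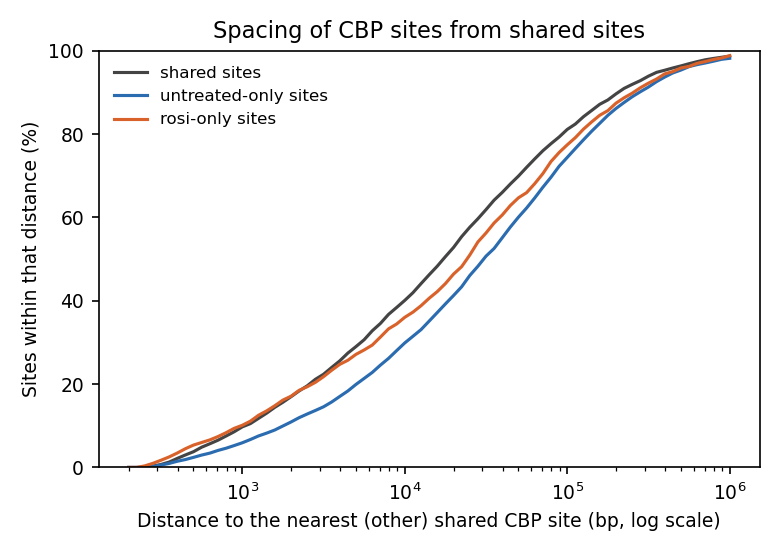
Cumulative share of CBP sites (y axis, %) within a distance between centres (x axis, bp, log scale) of the nearest shared CBP site, or the nearest other shared site for shared sites. The untreated-only curve lies lowest, at 29.9% within 10 kb, against 36.0% for rosi-only and 40.1% for shared sites.

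Rosi-only sites were few, and the nearest of them lay far from sites of every class. The median distance to the nearest other rosi-only site was 198 kb from rosi-only sites, and that to the nearest rosi-only site was 191 kb from shared and 248 kb from untreated-only sites. Within 10 kb of a rosi-only site lay 8.95%, 10.0% and 7.25% of them. Sites were chained into groups where neighbours lay at most 10 kb apart. This gave 3420 groups of 2 or more sites, with 59.3% of shared, 50.1% of untreated-only and 53.1% of rosi-only sites. Of those groups, 523 (15.3%) held untreated-only sites alone, 19 (0.556%) held rosi-only sites alone, and 445 (13.0%) held both kinds. The classes were spread over all 20 chromosomes, and the rosi-only share ran from 7.35% on chromosome 17 (5.74 to 9.36) to 12.5% on chromosome 2 (10.8 to 14.3), around the 9.53% of all sites.

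Shared sites with a rosi-only neighbour showed a small rank difference that depended on the distance taken. The median rank difference was 2.5 points (0.8 to 4.0) at the 488 shared sites with a rosi-only but no untreated-only site within 10 kb, and 58.0% of them were ranked higher. It was -0.8 points (-1.4 to -0.2) at the 2129 with an untreated-only neighbour alone, of which 46.5% were ranked higher, and 0.1 points at the 4971 with neither. At the 303 with both kinds it was -0.6 (-1.5 to 1.6), and 48.2% were ranked higher. Within 100 kb, the 436 sites with a rosi-only neighbour alone had a median of 2.9 points (1.1 to 4.0), and 57.6% were ranked higher. The 3777 with an untreated-only neighbour alone had a median of -0.4 points at that distance. Within 1 kb, the 160 sites with a rosi-only neighbour alone had a median of 0.7 points (-0.6 to 3.8), and 51.2% were ranked higher. That interval also holds the 2.5 points found at 10 kb. These medians are small beside the range of -10.2 to 10.1 points that holds the middle 50% of all shared sites.

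The groups with most sites of 1 class show how the classes mix locally. On chromosome 1 from 73929522 to 73966547, 14 CBP sites stood within 37.0 kb, 11 of them untreated-only and 3 shared, and 13 held at least 1 transcription factor. On chromosome 11 from 98741594 to 98781283, 9 of 14 sites were untreated-only and 5 shared. The highest untreated CBP scores in these groups were 3.06 and 3.30, within bin 9 of 10 of that list (3.00 to 3.94).

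The largest numbers of rosi-only sites per group were smaller. Chromosome 5 from 77491083 to 77494946 held 4 rosi-only sites and 1 shared site within 3.86 kb, and the p300 rosiglitazone list held 4 of the 5 while untreated p300 held 2. Chromosome 9 from 102576415 to 102621996 held 9 shared and 4 rosi-only sites and reached scores of 8.59 untreated and 7.93 treated.

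The untreated-only sites with the highest scores were of several kinds. The first lay on chromosome 17 from 39455786 to 39455985 with a score of 16.30, and only the untreated p300 list held it, at 14.06. It lies in the chromosome 17 stretch where a repeat was not tested for. The second, on chromosome 19 from 40490307 to 40490506, had a CBP score of 9.65. There MED1, at 6.74 and 6.91, and p300, at 6.26, were listed after rosiglitazone only. The next, on chromosome 6 from 38722599 to 38722798 with a CBP score of 7.83, also held MED1 in both rosiglitazone lists and neither untreated one, at 4.78 and 3.81, and p300 in both conditions, at 7.11 and 7.05.

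On chromosome 6 from 93289510 to 93289709, with a CBP score of 6.59, MED1 was listed after rosiglitazone only as well, at 4.01 and 5.72. At these 3 of the 8 highest untreated-only sites, MED1 and CBP were thus listed in opposite conditions. How often that holds over all untreated-only sites was not analysed. Of the 511 untreated-only sites in the highest of 4 score bins, the MED1 rosiglitazone lists held 23.9% and 27.2%. The untreated MED1 lists held 24.1% and 19.2% of them. Chromosome 5 from 108187866 to 108188065 had a CBP score of 7.65 and only NCOR beside it.

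The remaining 3 held C/EBP factors and ATF2. They lay on chromosome 2 from 124463644 to 124463843 (CBP score 7.47), on chromosome 2 from 31592775 to 31592974 (7.24) and on chromosome 17 from 84276055 to 84276254 (7.12). The p300 peak of the first and last of them, at 3.25 and 5.95, was listed in untreated cells only.

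Of the 8 rosi-only sites with the highest scores, 4 lay within 0.5 kb of a shared site. Chromosome 17 from 39451379 to 39451578 had the highest score of the whole list, 17.32, and stood 0.469 kb from a shared site, with p300 after rosiglitazone, at 21.51, as its only other list. This window and the next lie in the stretches where a repeat was not tested for. Chromosome 11 from 97968535 to 97968734 had a CBP score of 10.56 at 0.320 kb from a shared site, with p300 at 13.23 and 14.83. Chromosome 16 from 92164570 to 92164769 (6.10, at 0.282 kb) was in 11 other lists and chromosome 5 from 107405342 to 107405541 (5.82, at 0.242 kb) in 8. None of the 8 highest untreated-only sites lay nearer than 3.78 kb to a shared site.

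The other rosi-only sites of high score stood apart from shared ones. Chromosome 5 from 99590476 to 99590675 had a CBP score of 5.54 and stood 18.1 kb from the nearest shared site. MED1, at 3.67 and 6.67, and p300, at 6.38, were listed there after rosiglitazone only, while NCOR was listed in both conditions, at 6.84 and 10.14. Chromosome 19 from 15971764 to 15971963, with a CBP score of 4.88, held p300 and NCOR in both conditions and MED1 in both rosiglitazone lists, at 8.19 and 3.58, and in the first untreated one, at 4.81.

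The last pair had little company of treated coactivators. Chromosome 2 from 77810882 to 77811081 had a CBP score of 4.60, lay 726 kb from a shared site and held p300 alone, at 5.79 and 4.98. Chromosome 5 from 105534256 to 105534455 had a CBP score of 4.22 and held NCOR, CEBPa, CEBPb and ATF2 without p300 or MED1.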

How the data were processed

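CBP occupancy was measured by ChIP-seq in 1 untreated and 1 rosiglitazone-treated library. Bowtie, bedtools and HOMER with build mm8 were used, per the submitters' processing notes; no source at hand gives versions, the peak threshold or how input was used. Each library has its own list, and the score of each peak was set by the authors, who do not state its divisor. Read depth is unknown, so no depth interval is given.

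Windows were joined where they overlapped by 1 bp (centres at most 199 bp apart). Another list held a site where 1 of its windows overlapped it. Shares carry 95% Wilson intervals, their differences Newcombe intervals, and medians order-statistic intervals. MED1 ratios were compared by an exact permutation test over 4 lists. The code was tested on simulated data. Python 3.11.15, numpy 2.4.6, scipy 1.17.1 and matplotlib 3.10.9 were used.

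The regions named are the 8 highest untreated-only and rosi-only sites, the 4 shared sites of highest mean rank, the 5 with the largest rank shift in each direction, and the 2 groups with most sites of each 1-list class; ties went by chromosome and start. The sites, lists and tests were chosen with earlier results of these data known. Alternatives were an overlap of 100 bp, centres up to 500 bp apart, the upper 50% of each CBP list, equal list lengths, a middle window, groups chained at 5 kb, whole-list percentiles, each MED1 list left out and the replicate number as a block. Coordinates are mm8, counted from 1. Sequences and genes were not analysed here, since no genome or annotation of that build was used. GRO-seq and input samples were not used here.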

Additional observations from a re-analysis of the deposited data

Results flagged for a closer look

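The number of CBP peaks moved against those of NCOR and MED1, and in the same direction as that of p300. The log2 ratio of rosiglitazone to untreated peaks was -0.69 for CBP and -0.13 for p300. It was 0.18 for NCOR, 0.51 for MED1 replicate 1 and 0.61 for MED1 replicate 2. CBP therefore lay below 0 where NCOR and both MED1 pairs lay above it. The difference was not tested, since CBP and NCOR have 1 list per condition, and peak thresholds and depth, which are unknown, can set the length of a list. The lowest score was 1.43 in the second MED1 rosiglitazone list and between 1.00 and 1.05 in the other lists compared here. The part of this in the list lengths was not tested.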

How the results depend on the processing

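With the upper 50% of each CBP list, 4182 sites were shared, 3509 untreated-only and 574 rosi-only, rho was 0.75, the median distances to a shared site were 52.2 kb for untreated-only and 49.0 kb for rosi-only sites, and the rosi-only minus untreated-only difference was 28.0 points for p300 after rosiglitazone and -14.2 for ATF2. With the untreated CBP list cut to 9515 peaks, untreated-only and rosi-only counts were 2930 and 2928, rho was 0.78, the rosi-only distance was 30.5 kb and the p300 difference 16.2 points; the differences turned to -1.6 and -0.8 for untreated MED1 replicates 1 and 2, -1.8 for untreated p300 and -4.7 for NCOR after rosiglitazone. With an overlap of 100 bp the highest score bins (10 per list) kept 91.9% (untreated) and 97.1% (rosiglitazone). With centres up to 500 bp apart the distances were 33.0 and 27.7 kb. Fewer peaks or wider sites enter these settings by construction. With percentiles within each whole list, the median rank difference at shared sites was -8.5 points, against -0.0 points with percentiles among shared sites. The unequal shares of shared sites in the 2 lists enter that value by construction, so it gives no direction of change. The MED1 difference of 0.74 stayed between 0.58 (100 bp) and 0.94 (MED1 lists of equal length), and between 0.63 and 0.84 without each MED1 list in turn, where a lone list is assumed to vary like the others. With the replicate block the value was 0.74 and the exact permutation test gave p = 0.500, below which 2 pairs cannot go. The labels give the MED1 lists a number and do not say that it pairs them. CBP has no replicate, so no CBP value has a replicate check.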
